A study of Homo sapiens with 6 samples.

Results

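The zinc finger genes of human chromosome 19 were followed in HuCCT-1 cells kept with an inhibitor of the arginine methyltransferase PRMT5. A gene was taken where it was protein-coding, lay on chromosome 19, had a symbol of ZNF followed by a number, and had at least 60 reads over the 6 libraries. Of 247 such genes in the annotation, 161 met this count and 86 did not, 29 of them with 0 reads in every library. The table held 60605 genes in all. The total count chose the genes, so that they were detected is a property of the rule and not a result. All 161 passed the filter on low counts and were tested.

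HuCCT-1 is an established human line from a cholangiocarcinoma, a bile duct cancer. JNJ-64619178 (JNJ below) was given at 6 nM for 4 days, the controls received DMSO, its solvent, over that time, and polyadenylated RNA was sequenced from 3 libraries of each group. Both groups are the same unmodified line in the same medium, and they differ, as far as the labels state, only in the compound. Whether replicate libraries stem from cultures of their own is not stated, and the p-values therefore reflect only the spread among these libraries, which may be technical. Total counts per library were 23931991 to 28224911 with JNJ and 28133746 to 30691914 with DMSO. All 8 markers of biliary epithelium were expressed, with a summed level of 4571 to 4838 CPM (counts scaled to the library total) with JNJ and 5645 to 5919 CPM with DMSO. Of the hepatocyte markers TTR was at 0, and 4 of 5 averaged under 1 CPM, while SERPINA1 averaged 373 CPM with JNJ and 345 CPM with DMSO. Means were also under 1 CPM for 3 of 4 leukocyte markers, for all 3 endothelial markers and for 3 of 4 fibroblast markers, the fourth being COL1A1. The summed fibroblast markers stood at 60.8 to 63 CPM with JNJ and 32.5 to 37.6 CPM with DMSO, and their part in the zinc finger results was not tested. In bulk RNA, fewer cells with a transcript and less of it per cell cannot be told apart.

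Most of these genes encode proteins with a row of C2H2 zinc fingers that bind DNA, and many carry a KRAB domain at their start. The KRAB domain recruits the corepressor TRIM28, which brings in the histone methyltransferase SETDB1 and heterochromatin proteins, and KRAB zinc finger proteins are known for silencing retroelements in this way. The genes arose largely by tandem duplication, so chromosome 19 holds them in long runs of related neighbours. ZNF224, a KRAB protein of chromosome 19, is known as a repressor whose complex contains PRMT5.

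The promoters of 7 of the genes are printed because these neighbouring genes moved in opposite directions (ZNF224, ZNF225, ZNF230 and ZNF284 against ZNF226) or are a pair of close copies (ZNF585A and ZNF585B). Each runs 5′ to 3′ on the gene's strand, from the bases before the start into the first bases of the transcript, from RefSeq on GRCh38.p14. The positions are ZNF230 chr19:44002707-44003006, plus strand; ZNF284 chr19:44071909-44072208, plus strand; ZNF224 chr19:44094111-44094410, plus strand; ZNF225 chr19:44113149-44113448, plus strand; ZNF226 chr19:44164850-44165149, plus strand; ZNF585A chr19:37172646-37172945, minus strand; ZNF585B chr19:37210487-37210786, minus strand. Capitals mark GG, any base, A, any 2 bases and GTAGT (reverse complement ACTAC, any 2 bases, T, any base and CC), called the GTAGT letters below, which resemble the site known for the activator ZNF143 and were chosen after the sequences had been read.
ZNF230: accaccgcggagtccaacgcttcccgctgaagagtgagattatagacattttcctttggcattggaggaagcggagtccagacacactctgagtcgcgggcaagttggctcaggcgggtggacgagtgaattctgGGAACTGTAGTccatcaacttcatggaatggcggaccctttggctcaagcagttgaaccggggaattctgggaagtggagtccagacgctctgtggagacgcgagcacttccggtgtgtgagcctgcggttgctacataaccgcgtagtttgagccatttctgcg
ZNF284: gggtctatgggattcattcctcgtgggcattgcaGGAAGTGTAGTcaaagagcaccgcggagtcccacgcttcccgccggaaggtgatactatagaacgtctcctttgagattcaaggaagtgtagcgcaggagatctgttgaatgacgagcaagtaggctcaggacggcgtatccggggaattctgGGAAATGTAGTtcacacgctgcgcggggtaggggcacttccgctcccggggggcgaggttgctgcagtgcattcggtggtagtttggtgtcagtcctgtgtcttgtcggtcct
ZNF224: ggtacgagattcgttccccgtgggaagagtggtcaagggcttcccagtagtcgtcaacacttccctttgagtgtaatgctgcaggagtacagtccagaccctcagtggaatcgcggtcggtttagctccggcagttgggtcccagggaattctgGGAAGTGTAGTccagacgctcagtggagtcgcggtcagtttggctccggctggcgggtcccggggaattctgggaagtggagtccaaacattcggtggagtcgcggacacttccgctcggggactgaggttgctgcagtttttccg
ZNF225: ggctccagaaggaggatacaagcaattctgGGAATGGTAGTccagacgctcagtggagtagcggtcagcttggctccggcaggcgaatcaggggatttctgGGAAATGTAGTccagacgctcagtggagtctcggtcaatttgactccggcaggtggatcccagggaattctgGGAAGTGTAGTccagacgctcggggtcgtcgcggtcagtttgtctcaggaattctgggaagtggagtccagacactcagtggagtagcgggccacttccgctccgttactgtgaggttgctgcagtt
ZNF226: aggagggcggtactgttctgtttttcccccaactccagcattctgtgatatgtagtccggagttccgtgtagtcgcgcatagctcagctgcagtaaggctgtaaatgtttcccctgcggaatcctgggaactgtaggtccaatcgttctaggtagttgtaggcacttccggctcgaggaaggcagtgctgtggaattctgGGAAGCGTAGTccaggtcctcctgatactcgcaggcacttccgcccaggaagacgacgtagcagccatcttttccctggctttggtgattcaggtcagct
ZNF585A: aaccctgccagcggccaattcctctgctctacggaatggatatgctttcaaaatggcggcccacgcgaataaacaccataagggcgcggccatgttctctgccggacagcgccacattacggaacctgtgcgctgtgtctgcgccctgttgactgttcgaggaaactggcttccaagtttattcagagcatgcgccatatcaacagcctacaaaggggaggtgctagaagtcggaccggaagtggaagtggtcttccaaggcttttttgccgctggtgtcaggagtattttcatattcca
ZNF585B: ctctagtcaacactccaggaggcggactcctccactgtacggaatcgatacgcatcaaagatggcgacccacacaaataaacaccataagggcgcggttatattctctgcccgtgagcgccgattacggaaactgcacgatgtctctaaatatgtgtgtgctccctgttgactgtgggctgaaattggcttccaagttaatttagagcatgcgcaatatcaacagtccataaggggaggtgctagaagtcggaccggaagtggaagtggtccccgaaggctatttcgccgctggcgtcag

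A match to the GTAGT letters stood in the promoters of ZNF230, ZNF284, ZNF224 and ZNF225, which rose, and of ZNF226, which fell. It stood in neither ZNF585A nor ZNF585B. ZNF223 and ZNF234, which also fell in that stretch, are not among the printed promoters. RefSeq gave a promoter for 145 of the 161 genes, and 36 of these (24.8%) held the letters on either strand. The share was 14.2% of 183 promoters of ZNF genes on other chromosomes, 2.11% of 947 promoters of other coding genes of chromosome 19 and 1.58% of all 35116 promoters of the table, all windows having 300 bases. Both ZNF sets had to meet the count of 60 reads, whereas the other coding genes and the table as a whole had no count rule. Those sets can thus hold genes not detected here, for every motif below, and the 947 are not the 769 tested genes used for the calls. By the direction of change, 6 of 22 promoters of genes higher with JNJ (27.3%), 14 of 40 of genes lower with JNJ (35.0%) and 16 of 83 of genes with no call (19.3%) held them. The matches were spread unevenly along the chromosome, with 13 of 20 promoters in the run from ZNF575 to ZNF296, 16 of 41 in the run from ZNF628 to ZNF446, 5 of 14 in the run from ZNF565 to ZNF573 and 0 of 23 in the run from ZNF175 to ZNF331. The letters CCGGAAG, the core read by ETS factors, stood on either strand in 44.1% of these promoters, against 36.6% for ZNF genes of other chromosomes, 13.1% for other coding genes of chromosome 19 and 10.3% of all. For the TATAAA box the shares in the same order were 1.38%, 4.37%, 8.03% and 11.5%. For the GC box GGGCGG they were 64.8%, 63.4%, 66.6% and 45.0%, and for the CCAAT box 50.3%, 43.7%, 37.8% and 34.6%. The letters searched for YY1 gave 8.28%, 3.28%, 5.70% and 2.89%, those for CRE 4.83%, 4.92%, 3.48% and 1.85%, and those for NRF1 2.76%, 6.01%, 3.91% and 1.92%. Matches to different motifs may overlap. Neighbouring promoters arose from common copies and are not independent, and a match describes letters only, not binding.

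More zinc finger genes of chromosome 19 fell than rose with JNJ, most by small amounts. Of the 161, 22 were higher with JNJ (13.7%) and 43 were lower (26.7%) by edgeR's quasi-likelihood test at a Benjamini-Hochberg adjusted p under 0.05 over all 17371 genes tested. Among all tested genes 20.0% were called higher and 17.1% lower, 37.1% in all, so the share of the zinc finger genes called in either direction (40.4%) was close to the background while its split ran the other way. Summed over the 161 genes, the level was 1998, 1993 and 1993 CPM in the JNJ libraries, against 2075, 2065 and 2047 CPM in the DMSO libraries. All 3 JNJ libraries stood below all 3 DMSO libraries, with means of 1995 ± 2.58 CPM and 2062 ± 13.99 CPM (SD, n = 3 each).

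The median log2 fold change, JNJ over DMSO, was -0.16 across the 161 genes, against 0.00 across all genes tested. The middle 50% of genes lay between -0.31 and 0.09, and 108 of 161 (67.1%) were below 0. For ZNF genes on other chromosomes, chosen by the same rule, 29 of 220 were higher (13.2%) and 51 lower (23.2%), with a median of -0.04. For the other coding genes of chromosome 19, 202 of 769 were higher (26.3%) and 97 lower (12.6%), with a median of 0.06. These medians and counts stand side by side without a test of the lists against each other. In 25 genes all JNJ libraries exceeded all DMSO libraries and in 58 all lay below them, against a background of 24.7% and 22.2% of all tested genes, 47.0% in all. With upper-quartile scaling the median was -0.21, the median of all genes moved to -0.06, and the split became 19 higher and 58 lower.

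**Figure D1:**
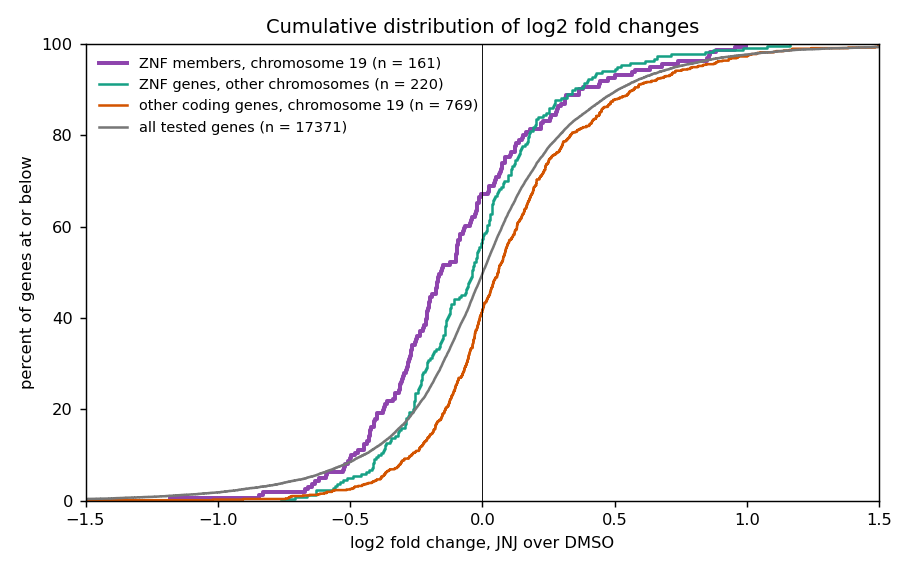
Cumulative percent of genes (vertical axis) at or below each log2 fold change of JNJ over DMSO (horizontal axis) for the 161 ZNF genes of chromosome 19, the 220 ZNF genes of other chromosomes, the 769 other coding genes of chromosome 19 and all 17371 tested genes. The curve of the ZNF genes of chromosome 19 lies to the left of the others over its middle part, with 67.1% of its genes below 0.

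Changes within the group were mostly small, as were those of all genes. The 22 genes that rose had a median log2 fold change of 0.49 and ranged between 0.18 and 0.99, and the 43 that fell had a median of -0.43 and ranged between -1.18 and -0.17. A change of at least 1.5-fold was called for 9 genes upward and 10 downward, against a background of 5.90% and 4.44% of all genes. In all 65 called genes the libraries of the groups did not overlap, which a call with 3 libraries a group makes likely for any gene. Over all tested genes, called or not, 47.0% did not overlap, and the share among all called genes is not given here. Of the 96 genes with no call, 78 had overlapping libraries. Of the 65 called changes, 41 were under 0.5 in size on the log2 scale, against 4183 of the 6448 called among all tested genes.

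Among the genes that rose, ZNF284, a KRAB gene of the ZNF575 to ZNF296 run, had 13.8, 14.6 and 16.1 CPM with JNJ, against 8.04, 7.90 and 6.39 CPM with DMSO. Its log2 fold change was 0.99 with a standard error (SE) of 0.10 and an edgeR adjusted p of 3.57e-08. Other genes, mostly an annotated read-through transcript over ZNF284 and its neighbours, share 43.9% of the 50-base words of ZNF284, so part of the reads cannot be placed on 1 gene. ZNF507, a zinc finger gene with no KRAB pattern that stands alone on the chromosome, had 58.0, 54.0 and 58.2 CPM with JNJ, against 32.9, 33.4 and 35.6 CPM with DMSO. With a log2 fold change of 0.74 (SE 0.06, edgeR adjusted p = 1.71e-10), it had the smallest p of the 161. ZNF557 had 11.3, 9.66 and 10.0 CPM with JNJ, against 5.83, 6.05 and 5.17 CPM with DMSO, and rose by 0.86 on the log2 scale (SE 0.11, edgeR adjusted p = 1.42e-06). None of its exons overlaps another gene. It heads the ZNF557 to ZNF846 run, where ZNF317 rose too (log2 fold change 0.23), while ZNF561 (-0.40) and ZNF266 (-0.20) fell.

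ZNF461 had 1.06, 1.44 and 1.23 CPM with JNJ, against 0.838, 0.761 and 0.482 CPM with DMSO (log2 fold change 0.85, edgeR adjusted p = 0.0307). ZNF490 had 2.24, 2.84 and 2.50 CPM with JNJ, against 1.68, 1.88 and 1.54 CPM with DMSO (log2 fold change 0.58, edgeR adjusted p = 0.0271). Both had separate libraries, as the choice of the largest changes required, but each lost its call under 5 of 13 alternatives. For ZNF490, 61.3% of the exonic bases lie in a read-through gene of the same strand. ZNF653, which lacks a KRAB pattern, had 6.63, 6.86 and 7.12 CPM with JNJ, against 4.49, 5.47 and 4.63 CPM with DMSO, and kept its call under all 13 (log2 fold change 0.50, edgeR adjusted p = 0.00293). Other genes of the same strand, ECSIT among them, overlap 14.5% of its exonic bases.

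Among the genes that fell, ZNF529 had 7.04, 7.60 and 7.12 CPM with JNJ, against 13.1, 12.9 and 12.7 CPM with DMSO. Its log2 fold change was -0.83 (SE 0.09, edgeR adjusted p = 1.90e-07), with a narrow spread in both groups. ZNF780B had 18.4, 15.3 and 15.8 CPM with JNJ, against 27.8, 25.03 and 26.1 CPM with DMSO (log2 fold change -0.67, SE 0.08, edgeR adjusted p = 1.94e-07). Its neighbouring copy ZNF780A had 29.7, 25.3 and 26.5 CPM with JNJ, against 26.3, 27.4 and 26.5 CPM with DMSO, groups that overlap (log2 fold change 0.02, edgeR adjusted p = 0.824). ZNF780B shares 2.96% of its 50-base words with other genes, most often with ZNF780A, and the difference between the members of this pair was not tested. The largest fall by size was that of ZNF738, with 0.325, 0.315 and 0.170 CPM with JNJ, against 0.637, 0.833 and 0.418 CPM with DMSO. It rests on 76 reads in all, and its call (log2 fold change -1.18, SE 0.44, edgeR adjusted p = 0.0362) was lost under 7 of 12 alternatives. Its reading frame here has a KRAB pattern and no finger.

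**Figure D2:**
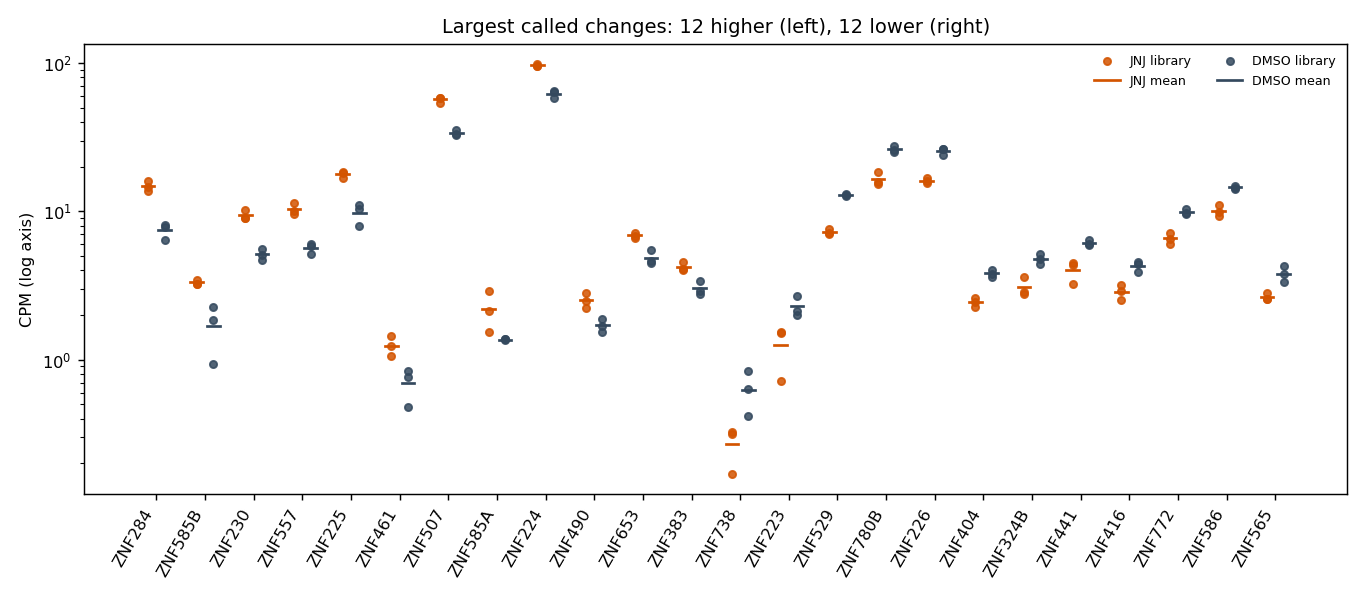
CPM on a log axis in each library (points) and as group means (lines) for the 12 genes with the largest called rise (left) and the 12 with the largest called fall (right), JNJ left of DMSO in each pair. The JNJ points lie on 1 side of the DMSO points in all 24 genes because the choice of genes required it. ZNF507 and ZNF224 are the only ones with all points above 30 CPM.

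Other genes among the largest falls were ZNF404 (log2 fold change -0.64), ZNF324B (-0.63), ZNF441 (-0.62), ZNF416 (-0.59), ZNF772 (-0.59), ZNF586 (-0.53) and ZNF565 (-0.52), with edgeR adjusted p between 4.50e-05 and 0.0164. ZNF565 overlaps ZNF146 on the opposite strand over 11.3% of its exonic bases. The lowest means among these were 2.45 CPM with JNJ for ZNF404 and 3.79 CPM with DMSO for ZNF565. ZNF565 lost its call without DMSO replicate 1 (adjusted p = 0.0774). The other 6 kept theirs under all 13 alternatives.

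Of the 6 genes with the highest mean CPM, ZNF224 rose, ZNF266 fell and the other 4 were not called. Per kilobase of exon, ZNF146, a gene of fingers alone with no KRAB domain, had the highest level, with 29.6 CPM per kb in JNJ libraries and 31.7 CPM per kb in DMSO libraries. Its libraries had 123, 126 and 119 CPM with JNJ, against 130.4, 130.1 and 133 CPM with DMSO. The groups do not overlap, but the log2 difference of -0.10 (SE 0.04) missed the threshold with an edgeR adjusted p of 0.0937, and it passed with upper-quartile scaling (0.00775) and without JNJ replicate 2 (0.0472). ZNF121 (log2 difference -0.07), ZNF444 (0.07) and ZNF587 (-0.09) were not called, though ZNF587, whose libraries did not overlap, passed with upper-quartile scaling (-0.15, adjusted p = 0.0324). ZNF266 had 44.8, 42.6 and 40.7 CPM with JNJ, against 52.9, 48.8 and 45.5 CPM with DMSO. It fell by 0.20 on the log2 scale (edgeR adjusted p = 0.0102), a call lost without DMSO replicate 1 or without JNJ replicate 3 (adjusted p up to 0.0849).

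The values of the genes nearest the count threshold are given as a description. Just inside it stood ZNF20 with 70 reads and ZNF738, described above, with 76, and just outside it ZNF675 with 59 and ZNF564 with 56. ZNF675 had 0.325, 0.385 and 0.424 CPM with JNJ, against 0.302, 0.326 and 0.385 CPM with DMSO, and ZNF564 had 0.244, 0.245 and 0.254 CPM with JNJ, against 0.536, 0.399 and 0.321 CPM with DMSO. At such totals the libraries differ by a few reads each.

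Along the chromosome, genes were placed in 1 run as long as neighbouring ZNF genes were under 1000 kb apart, which gave 16 runs. Of these, 9 held at least 3 tested genes and together 154 of the 161. More genes fell than rose in 5 of the 9, more rose than fell in 3, and 1 was even, with medians below 0 in 8 of the 9. The runs differed in how many of their genes were detected: 24 of 24 annotated genes met the count in the run from ZNF575 to ZNF296, while 7 of 37 did in the run from ZNF101 to ZNF254 next to the centromere. That run holds ZNF91, known for silencing SVA retroelements, which had 1.46, 1.09 and 1.399 CPM with JNJ, against 1.64, 1.20 and 1.35 CPM with DMSO, and was not called.

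**Figure D3:**
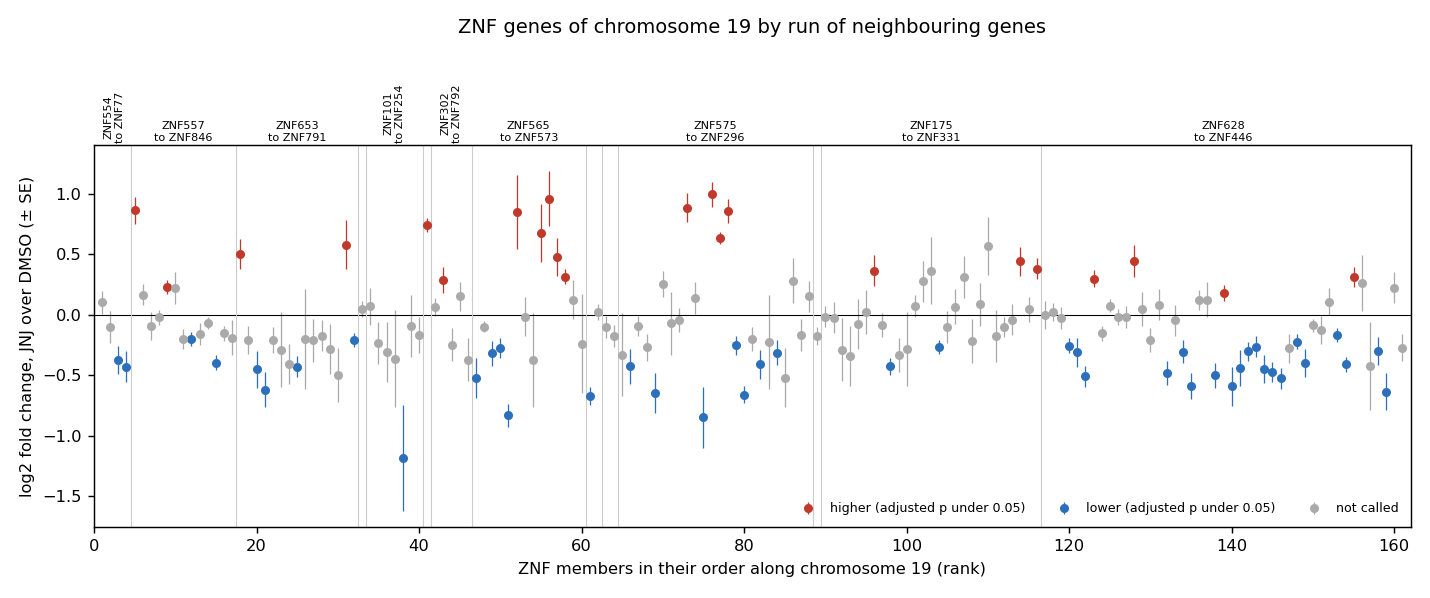
Log2 fold change of JNJ over DMSO (vertical axis, bars are ± 1 SE) for the 161 genes in their order along chromosome 19 (horizontal axis, rank), with grey lines between runs and colours for the call. Genes called higher and lower are interleaved in the ZNF575 to ZNF296 run, while in the ZNF565 to ZNF573 run the called falls lie left of the called rises. Called genes at the right end, in the ZNF628 to ZNF446 run, are mostly lower.

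The run with the most falls was the last one before the end of the long arm, from ZNF628 to ZNF446 (chr19:55476332-58481230 in GENCODE release 29 on GRCh38). Of its 45 tested genes, 20 fell (44.4%) and 4 rose (8.89%), with a median log2 fold change of -0.21. When runs were split at gaps of 500 kb, its larger piece, ZNF264 to ZNF446, held 36 genes, 17 lower and 3 higher, with a median of -0.24. Within it, 7 tested neighbours in order along the chromosome all fell: ZNF416, ZNF530, ZNF134, ZNF211, ZNF551, ZNF776 and ZNF586, over 248 kb. This stretch was found after the values were seen. Its log2 fold changes lay between -0.59 and -0.26, the highest edgeR adjusted p was 0.0233, and the libraries of the groups were apart in all 7 genes.

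ZNF776 and ZNF586 show the stretch. The same annotated gene overlaps 11.5% of the exonic bases of ZNF776 and 4.25% of those of ZNF551 on their strand, so their counts may not be fully separate. For ZNF586, 6.78% of the exonic bases overlap other genes of its strand. ZNF776 had 13.9, 12.7 and 11.99 CPM with JNJ, against 17.4, 19.1 and 17.02 CPM with DMSO (log2 fold change -0.47, edgeR adjusted p = 8.03e-05). ZNF586 had 9.35, 9.87 and 10.98 CPM with JNJ, against 14.8, 14.2 and 14.4 CPM with DMSO (log2 fold change -0.53, edgeR adjusted p = 4.50e-05). With 1 library left out, between 5 and 7 of the 7 kept the call, the 5 without DMSO replicate 1. In the same run ZNF544 had 21.2, 22.4 and 21.2 CPM with JNJ, against 29.1, 29.2 and 27.7 CPM with DMSO (log2 fold change -0.41, edgeR adjusted p = 1.98e-05), the smallest p of the run. ZNF274, which recruits SETDB1 to the ends of zinc finger genes, had 38.4, 38.6 and 38.3 CPM with JNJ, against 45.5, 44.0 and 40.02 CPM with DMSO, and fell by 0.17 on the log2 scale (edgeR adjusted p = 0.0260). The 4 genes of the run that rose were ZNF460 (log2 fold change 0.45), ZNF8 (0.31), ZNF581 (0.30) and ZNF550 (0.18).

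The run from ZNF575 to ZNF296 held 4 of the 9 genes that rose by at least 1.5-fold and 3 of the 10 that fell by as much. Its 24 genes gave 4 rises and 7 falls, with a median of -0.18. From left to right, ZNF230 rose, ZNF223 fell, ZNF284, ZNF224 and ZNF225 rose, and ZNF234 and ZNF226 fell. ZNF230 had 8.95, 10.2 and 9.07 CPM with JNJ, against 4.73, 5.58 and 5.04 CPM with DMSO (log2 fold change 0.88, SE 0.12, edgeR adjusted p = 1.62e-06). Its next tested neighbour ZNF222 had 5.49, 6.27 and 6.70 CPM with JNJ, against 6.30, 5.04 and 5.40 CPM with DMSO, and was not called. ZNF223 had 1.55, 1.51 and 0.721 CPM with JNJ, against 2.01, 2.14 and 2.698 CPM with DMSO (log2 fold change -0.85, edgeR adjusted p = 0.00998). JNJ replicate 3 was the lowest of its libraries, and the call was lost without it or without DMSO replicate 3 (adjusted p up to 0.0714). ZNF223 shares 43.7% of its 50-base words with other genes, mostly with the same read-through gene as ZNF284, which lies 4.15 kb further on.

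ZNF224 had 95.4, 95.9 and 97.7 CPM with JNJ, against 64.6, 64.0 and 57.9 CPM with DMSO. The groups stood far apart relative to their spread, with a log2 fold change of 0.63 (SE 0.05, edgeR adjusted p = 4.95e-10). An antisense gene covers 40.5% of its exonic bases, and as it is not known here whether counting used the strand, reads of both strands cannot be told apart there. ZNF225 had 18.1, 16.7 and 18.5 CPM with JNJ, against 10.99, 7.93 and 10.3 CPM with DMSO (log2 fold change 0.86, SE 0.10, edgeR adjusted p = 2.39e-07). Only 0.82% of its exonic bases lie under that antisense gene. ZNF234, 6.74 kb beyond it, had 14.8, 14.8 and 15.3 CPM with JNJ, against 17.1, 16.95 and 19.3 CPM with DMSO (log2 fold change -0.25, edgeR adjusted p = 0.0141). ZNF226 had 16.9, 15.5 and 16.02 CPM with JNJ, against 24.1, 26.2 and 26.1 CPM with DMSO (log2 fold change -0.66, SE 0.07, edgeR adjusted p = 8.22e-08). ZNF284, ZNF224, ZNF225, ZNF230 and ZNF226 kept their calls under all 13 alternatives.

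**Figure D4:**
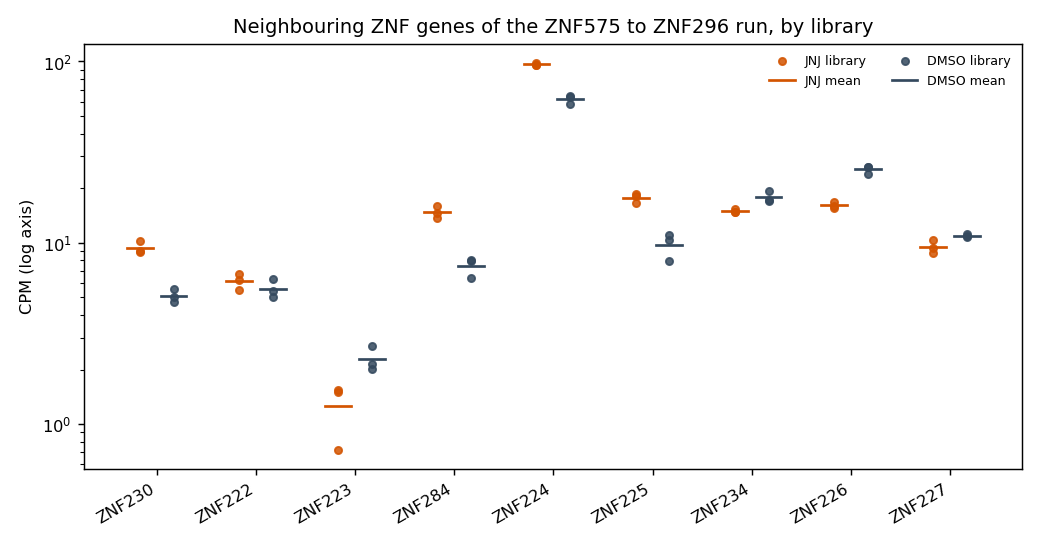
CPM on a log axis in each library (points) and as group means (lines) for 9 ZNF genes of the ZNF575 to ZNF296 run in chromosomal order, JNJ left of DMSO in each pair. The JNJ points lie above the DMSO points for ZNF230, ZNF284, ZNF224 and ZNF225 and below them for ZNF223, ZNF234, ZNF226 and ZNF227, the last with no call.

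The run from ZNF565 to ZNF573 had the largest share of called genes among the 9 runs, 5 higher and 4 lower of 14, and a median of -0.06 whose sign turned under some alternatives (-0.12 to 0.05). Its falls and rises stood in separate stretches: ZNF566, ZNF260 and ZNF529 fell side by side, and ZNF585A, ZNF585B, ZNF383 and ZNF875 rose side by side, as seen after the values were known. ZNF585B had 3.25, 3.26 and 3.43 CPM with JNJ, against 1.84, 0.942 and 2.28 CPM with DMSO (log2 fold change 0.96, edgeR adjusted p = 0.00171). ZNF585A had 2.89, 2.14 and 1.53 CPM with JNJ, against 1.37, 1.38 and 1.35 CPM with DMSO (log2 fold change 0.68, edgeR adjusted p = 0.0289). The 2 genes are close copies, ZNF585B sharing 24.9% of its 50-base words mostly with ZNF585A, and JNJ replicate 1 was the highest library of ZNF585A. Without it the log2 fold change of ZNF585A was 0.43, and the call was lost under 5 of 13 alternatives, which were DESeq2 and leaving out that library or any 1 DMSO library (adjusted p up to 0.219). ZNF383 had 4.03, 4.10 and 4.54 CPM with JNJ, against 2.88, 2.79 and 3.40 CPM with DMSO (log2 fold change 0.47, edgeR adjusted p = 0.0195), a call lost under 3 of 13, and ZNF875 had 34.7, 37.3 and 33.8 CPM with JNJ, against 29.4, 29.3 and 26.3 CPM with DMSO (log2 fold change 0.32, edgeR adjusted p = 0.000368). Of these 4 rises, 2 remained called without DMSO replicate 1 or without DMSO replicate 2, and of the 3 falls only 1 without JNJ replicate 2. The counts of the run fell to 2 higher without DMSO replicate 2, to 3 higher when replicate 1 or 3 of DMSO or replicate 3 of JNJ was left out, and to 2 lower without DMSO replicate 1.

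The remaining runs held fewer calls. The run from ZNF175 to ZNF331, with 27 tested genes, had 3 rises and 2 falls and a median of -0.02. There ZNF841 had 20.7, 19 and 20.6 CPM with JNJ, against 27.1, 28.7 and 25.1 CPM with DMSO (log2 fold change -0.43, edgeR adjusted p = 3.83e-05). ZNF350, a KRAB protein known to bind BRCA1, had 1.91, 2.24 and 2.42 CPM with JNJ, against 2.85, 2.14 and 1.93 CPM with DMSO, groups that overlap. The run from ZNF653 to ZNF791, with 15 tested genes, had 2 rises and 4 falls and a median of -0.21, though 13 of its 15 genes lay below 0. Its smallest p was that of ZNF700, with 13.2, 12.8 and 11.7 CPM with JNJ, against 16.3, 16.4 and 18.2 CPM with DMSO (log2 fold change -0.43, edgeR adjusted p = 0.00024). Another gene of the same strand overlaps 17.4% of the exonic bases of ZNF700. The 2 rises of the run became 1 when replicate 1 or 3 of DMSO or replicate 2 or 3 of JNJ was left out.

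On the short arm the run from ZNF557 to ZNF846, with 13 tested genes, had 2 rises, 2 falls and a median of -0.09, and the falls became 1 without DMSO replicate 1 or JNJ replicate 3. The run from ZNF554 to ZNF77 had 2 falls among 4 genes. ZNF77 had 5.25, 6.34 and 4.75 CPM with JNJ, against 7.74, 7.17 and 7.16 CPM with DMSO (log2 fold change -0.43, edgeR adjusted p = 0.00972). Without JNJ replicate 3 its adjusted p was 0.0617 and neither gene of the run was called, and 1 was called without DMSO replicate 2 or JNJ replicate 1. The run from ZNF302 to ZNF792 had the only median above 0 (0.06) among the 9 runs with at least 3 tested genes, with 1 rise, ZNF181 (log2 fold change 0.29, edgeR adjusted p = 0.0406), among 5 genes. ZNF181 had 7.93, 8.96 and 9.41 CPM with JNJ, against 7.10, 7.06 and 7.39 CPM with DMSO, and its call was lost under 9 of 13 alternatives.

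**Figure D5:**
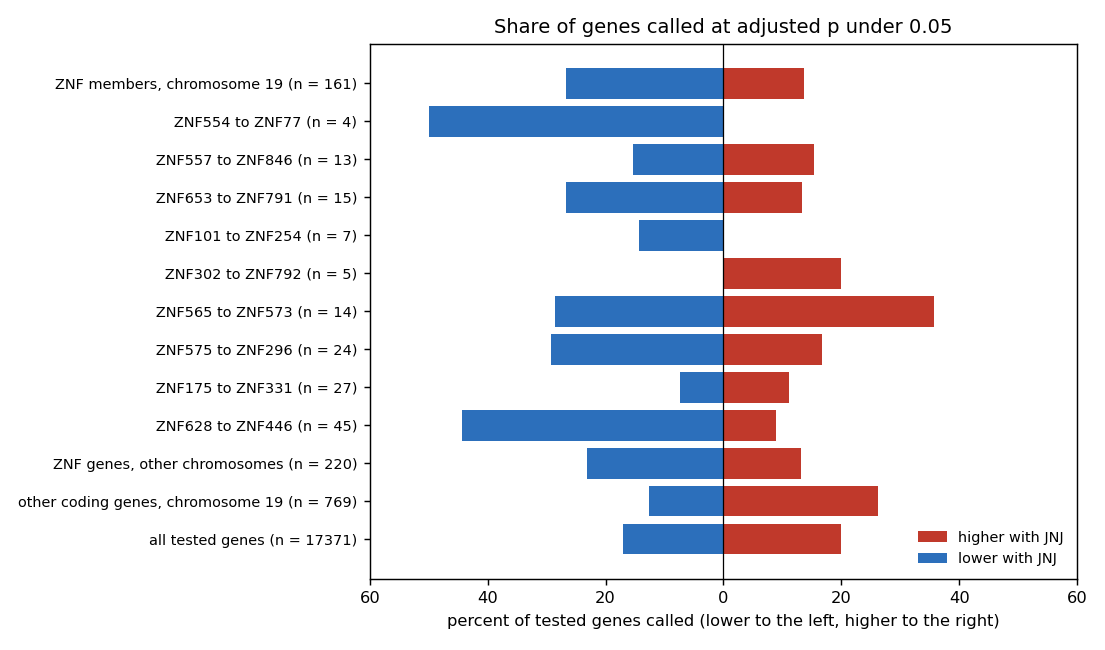
Percent of tested genes called lower (bars to the left) and higher (bars to the right) with JNJ at an edgeR adjusted p under 0.05, for the ZNF genes of chromosome 19, each run with at least 3 tested genes, ZNF genes of other chromosomes, other coding genes of chromosome 19 and all tested genes. The ZNF554 to ZNF77 run (4 genes) has 50% lower and the ZNF628 to ZNF446 run (45 genes) 44.4%, against 17.1% of all tested genes.

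Neighbours could move together or apart. Among 147 pairs of tested genes next to each other within a run, 93 had log2 fold changes of the same sign, and Spearman's rho between neighbours was 0.20, as a description over pairs that share libraries. In 30 pairs both genes were called, 22 in the same direction and 8 in opposite directions. With 108 of the 161 genes below 0, and 43 called lower against 22 higher, genes that are not neighbours would often agree too. Pairs of that kind were not counted. The opposite pairs were ZNF223 and ZNF284, ZNF225 and ZNF234, ZNF529 and ZNF461, ZNF580 and ZNF581, ZNF544 and ZNF8, ZNF549 and ZNF550, ZNF550 and ZNF416, and ZNF490 and ZNF791. Other genes of the same strand overlap 20.7% of the exonic bases of ZNF8, and a gene among them also overlaps ZNF544. On the opposite strand, ZNF549 overlaps 9.3% of the exonic bases of ZNF550. ZNF580 and ZNF581 overlap on the same strand over 15.1% of the exonic bases of ZNF580 (with CCDC106 included). ZNF580 had 12.1, 13.6 and 15.7 CPM with JNJ, against 19.1, 19.1 and 20.5 CPM with DMSO (log2 fold change -0.51, edgeR adjusted p = 4.78e-05), while ZNF581 had 26.4, 25.7 and 29.1 CPM with JNJ, against 20.5, 22.0 and 23.5 CPM with DMSO (log2 fold change 0.30, edgeR adjusted p = 0.00183). Both lack a KRAB pattern.

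Features of the genes stood in weak relation to the change. A KRAB pattern was found in 132 of the 161 reading frames, of which 18 rose and 37 fell (median log2 fold change -0.17), and among the 29 without it 4 rose and 6 fell (-0.09). The number of C2H2 fingers ranged between 0 and 32 with a median of 12. Across the 161 genes, Spearman's rho with the log2 fold change was -0.04 for the number of fingers, 0.01 for protein length, 0.03 for transcript GC content, 0.11 for mean level, 0.20 for exonic length and 0.14 for the number of exon blocks. These are descriptions across genes that share libraries. In 38 genes over 10% of the exonic bases on the same strand or of the 50-base words were shared with another gene, and 7 of these rose and 9 fell. Without them 15 of 123 rose and 34 fell, with a median of -0.16. With genes overlapped on the opposite strand over 10% of their exonic bases left out as well, ZNF224 among them, 13 of 109 rose and 30 fell, with a median of -0.17.

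Genes for proteins through which KRAB zinc fingers act were called about as often as all genes. Of 30 such genes, all tested, 9 were higher with JNJ (30%) and 2 lower (6.67%), 36.7% in all, with a median log2 fold change of 0.04. Of all tested genes 20.0% were higher and 17.1% lower, 37.1% in all, and of all tested coding genes 24% were higher and 16.8% lower. The corepressor TRIM28 had 225, 253 and 239 CPM with JNJ, against 258, 249 and 257 CPM with DMSO, groups that overlap (log2 difference -0.09, edgeR adjusted p = 0.130). SETDB1, which writes H3K9 trimethylation, had 106.2, 107.2 and 106.1 CPM with JNJ, against 66.3, 66.4 and 64.6 CPM with DMSO (log2 fold change 0.70, edgeR adjusted p = 1.97e-11). EHMT2, another H3K9 methyltransferase, rose by 0.84 on the log2 scale (edgeR adjusted p = 1.21e-12), and its partner EHMT1 was not called (0.06, adjusted p = 0.395). DNMT3A (0.40), MPHOSPH8 of the HUSH complex (0.29), DNMT1 (0.26), SMARCAD1 (0.23), CBX3 (0.21), CHD3 (0.18) and ATF7IP, the partner of SETDB1 (0.15), were higher as well, with edgeR adjusted p up to 0.0193. CBX5, the heterochromatin protein HP1 alpha, was lower (-0.17, adjusted p = 0.0168), as was ZNF274, which is also one of the 161. Among 18 other zinc finger genes of chromosome 19 of the ZFP, ZSCAN, ZBTB, ZIK, ZIM and PEG3 names, 4 were tested, with ZSCAN22 higher (0.44, adjusted p = 0.00934), ZSCAN5A lower (-1.02, adjusted p = 0.000619) and ZBTB7A and ZBTB45 not called.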

How the data were processed

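Polyadenylated RNA of HuCCT-1 cells was sequenced in 3 JNJ and 3 DMSO libraries. A single table was deposited, with the authors' raw counts for every gene. Per the labels' protocols the libraries were made with a stranded mRNA kit. FastQC 0.11.8, STAR 2.7.9a and featureCounts 1.6.0 are named, per the submitters' processing notes, which give no role. The notes name the mouse build GRCm39, while the identifiers are human, which leaves the build open to doubt. No source used here gives the annotation, the use of strand or the treatment of multiply mapped reads, and counts of paralogous, overlapping and read-through genes are therefore uncertain.

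A total of 44 repeated identifiers, all with 0 counts, were dropped, leaving 60605 genes, of which 60593 had a symbol. GENCODE release 29 on GRCh38 gave gene types and positions (58337 genes), reading frames, exonic overlaps and shared 50-base words, and may differ from the authors' annotation. Fingers and KRAB patterns were found by letter patterns in the translated frames. The members and gene lists were chosen with earlier results of these data known. Genes passing filterByExpr (minimum count 10, minimum total 15) were fitted with edgeR 4.0.16 (TMM scaling, glmQLFit, glmQLFTest, group alone), with Benjamini-Hochberg adjustment over 17371 genes and a threshold of 0.05. CPM used TMM-scaled library sizes. The common biological coefficient of variation was 4.89%. Replicate libraries all differed beyond sampling noise (chi-square over degrees of freedom 2.56 to 8.09), and each counted as 1. In simulated counts the fit recovered 67.7% of 99 changes of 1.5-fold and 89% of 100 changes of 2-fold, and it called 10 unchanged genes. Smaller changes were not simulated.

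Named genes were the 12 called members with the largest change in each direction and libraries apart, the 6 with the highest mean CPM, the smallest p in each run with at least 3 tested genes, and the 2 genes on either side of the count rule. Other genes named were chosen after their values were seen. Alternatives were DESeq2 1.42.0, limma-voom (limma 3.58.1), RLE and upper-quartile scaling, no filter, CPM above 1 in 3 libraries, the replicate number as a block, each library left out, a total count of at least 600, symbols of digits alone and a gap of 500 kb. R 4.3.3 and Python 3.11.15 were used.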

Additional observations from a re-analysis of the deposited data

How the results depend on the processing

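The split of the 161 genes (22 higher and 43 lower) was 16 and 40 with DESeq2, 22 and 41 with limma-voom, 22 and 46 with RLE scaling, 19 and 58 with upper-quartile scaling, 20 and 41 without a filter, 22 and 45 with CPM above 1, 21 and 41 with the replicate number as a block, 20 and 40 of 155 with symbols of digits alone, and 17 and 38 of 122 with at least 600 reads. With 1 library left out it ranged between 16 and 21 higher and between 32 and 43 lower. The median of -0.16 was -0.10 with CPM above 1, -0.10 with at least 600 reads and -0.21 with upper-quartile scaling, and lay between -0.14 and -0.12 with 1 library left out. The cause was not tested. The median of the ZNF628 to ZNF446 run (-0.21) was -0.19 with CPM above 1, -0.22 with DESeq2, -0.21 with RLE scaling, -0.22 without a filter, -0.21 with the replicate block, -0.27 with upper-quartile scaling, -0.24 for the larger piece at a gap of 500 kb, and -0.23 to -0.16 with 1 library left out. The replicate spread computed for this median, 0.00437, was far smaller than its range with 1 library left out. It therefore understates how far the median moves, and small moves exceed it. With upper-quartile scaling the ZNF302 to ZNF792 median was 0.0037 and the ZNF175 to ZNF331 median -0.0817. That scaling also called 4099 of all genes lower, against 2970, and 146 other coding genes of chromosome 19 lower, against 97. In the ZNF101 to ZNF254 run the single fall is that of ZNF738. In the ZNF575 to ZNF296 run the 7 falls became 4 without JNJ replicate 3. Libraries of the same replicate number showed no sign of pairing (correlations of deviations -0.018, -0.014 and 0.002, against -0.032 to 0.046 for unlike numbers). With 3 libraries a group this cannot settle whether they are pairs, which the labels do not state, and no crossed pairing was tried. The 35 tested genes named by the rule kept their direction under all alternatives run for them; other genes named were not followed through the alternatives one by one. At the lowest levels, a few reads per library limit what can be seen.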
